A study of Mus musculus with 8 samples.

Results

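The transcripts described here are 8 genes of the B-lymphocyte lineage, *Igkc*, *Ighm*, *Jchain*, *Cd79a*, *Cd79b*, *Ms4a1*, *Pax5*, and *Ebf1*, taken by symbol from the 55450 genes in the count table. They were chosen with their levels in these libraries already known, so their values are given as a description and without p-values. RNA-sequencing was performed on CD45-EpCAM+ thymic epithelial cells (TECs) sorted from embryonic day 17 mouse embryos that carried 2 reporters, tdTomato knocked into *Ccl21a* and Venus expressed from a *Tnfrsf11a* (RANK) transgene. All libraries shared these alleles, this stage, and this gate, and no treatment was given. There were 3 libraries of CCL21+RANK-, 3 of CCL21-RANK+, and 2 of CCL21-RANK- TECs. The populations were defined by reporter fluorescence and not by a B-lineage marker, and cells that stained for CD45 were left out by the gate. Totals were 59677342, 46003149, and 55116934 counts for the CCL21+RANK- libraries, 57286773, 50146758, and 42751858 for CCL21-RANK+, and 67451448 and 71625319 for CCL21-RANK-. The study describes its replicates as biological, and the labels number them without saying which embryos or litters each came from. Errors and p-values measure the spread between these libraries.

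The B-cell antigen receptor is a membrane immunoglobulin, made of heavy and light chains, that signals through the paired chains CD79A and CD79B. Pax5 and Ebf1 are transcription factors that set the B-cell programme and switch on *Cd79a* and other genes of the lineage. A B cell assembles the variable part of each chain by joining V, D, and J segments, and the joined exon is then spliced to a constant gene such as *Ighm* or *Igkc*. In the thymus, medullary TECs transcribe many genes of other tissues, a process in which the nuclear protein Aire takes part. The thymus also holds developing T cells, B cells, and myeloid cells, which carry CD45.

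Marker genes were read against the labels. The level of *Ccl21a*, in RPKM (reads scaled by exon length and by library total, mean ± SD), was 404 ± 137 for CCL21+RANK-, 109 ± 38.4 for CCL21-RANK+, and 7.89 ± 1.41 for CCL21-RANK- TECs. *Ccl21a* was thus highest in the population labelled CCL21+, but the population labelled CCL21-RANK+ also held it above the level of CCL21-RANK- TECs, which goes against the CCL21- part of its label at the level of RNA. For *Tnfrsf11a* the corresponding levels were 9.5 ± 0.75, 104 ± 9.37, and 2.44 ± 0.258 RPKM. *Epcam* and *Foxn1*, the TEC transcription factor, were present in every library, and *Aire* was at 113 ± 18.4 RPKM in CCL21-RANK+ and 0.747 ± 0.1 RPKM in CCL21+RANK- TECs. The CCL21+RANK- libraries also held 1585 ± 1227 RPKM of *Pth*, the parathyroid hormone gene, against 1.16 ± 0.64 RPKM for CCL21-RANK+ TECs.

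Sequences are shown for light-chain genes, because reads of closely related copies can be divided between them, and for the promoters of *Cd79a* and *Pax5*, both of which were higher in CCL21-RANK+ TECs. *Igkc*, the constant gene of the kappa light chain, was 36.3% identical to *Iglc3*, a lambda constant gene, over 311 coding bases compared without gaps. *Iglc2* and *Iglc3* were 96.5% identical, with 11 differences over 314 coding bases, so the division of counts between them is uncertain. The first 90 coding bases of each in GRCm38, 5′ to 3′ on the gene's strand, lie at chr6:70726435-70726524 (+ strand) for *Igkc*, chr16:19198764-19198853 (- strand) for *Iglc2*, and chr16:19065592-19065681 (- strand) for *Iglc3*. Capitals mark the bases of *Iglc2* that differ from *Iglc3*, and its first base has no partner there.
Igkc: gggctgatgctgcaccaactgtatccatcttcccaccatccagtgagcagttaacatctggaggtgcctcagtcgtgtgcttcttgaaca
Iglc2: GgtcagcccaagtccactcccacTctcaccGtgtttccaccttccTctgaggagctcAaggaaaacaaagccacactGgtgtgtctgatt
Iglc3: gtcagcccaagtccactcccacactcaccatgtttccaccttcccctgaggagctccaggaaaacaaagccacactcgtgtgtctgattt

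RefSeq promoter windows of GRCm38.p6, from 250 bases before to 50 bases after a gene's start, matched 4 of the 8 genes (*Cd79a*, *Jchain*, *Pax5*, and *Ebf1*). Gene starts in RefSeq differ from those of the annotation used for gene positions here, and the *Pax5* window lies wholly upstream of the *Pax5* span given below. They were searched on both strands for the EBF palindrome (TCCC, any 2 bases, GGGA), the octamer ATGCAAAT bound by Oct factors, and GGAAGT, a core bound by PU.1 and Spi-B. None of these strings contains another. They were held by 0.904%, 1.74%, and 23.8% of all 32851 windows. *Cd79a* held 1 match to GGAAGT (capitals), starting at base 197 of the window, and no match to the others. *Pax5* and *Jchain* held none of the 3, and of the 2 windows of *Ebf1* 1 held a match to GGAAGT on the opposite strand. The *Cd79a* window is chr7:24897247-24897546 (+ strand) and the *Pax5* window chr4:44710645-44710944 (- strand), each printed 5′ to 3′ on the strand of the gene.
Cd79a: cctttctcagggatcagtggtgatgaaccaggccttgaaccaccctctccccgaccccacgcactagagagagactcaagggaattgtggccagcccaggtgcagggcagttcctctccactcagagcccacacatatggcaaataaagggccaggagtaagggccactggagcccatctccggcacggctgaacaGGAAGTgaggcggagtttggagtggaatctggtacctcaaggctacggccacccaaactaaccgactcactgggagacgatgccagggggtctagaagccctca
Pax5: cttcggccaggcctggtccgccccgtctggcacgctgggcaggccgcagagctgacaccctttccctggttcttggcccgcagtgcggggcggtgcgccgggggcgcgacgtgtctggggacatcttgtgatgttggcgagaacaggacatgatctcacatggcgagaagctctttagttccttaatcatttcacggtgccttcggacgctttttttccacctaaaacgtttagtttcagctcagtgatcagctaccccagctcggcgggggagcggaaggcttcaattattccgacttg

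Replicate 1 of the CCL21-RANK+ TECs stood apart from replicates 2 and 3. Its RPKM level divided by their mean was 1.14 for *Igkc*, 1.13 for *Ebf1*, 1.45 for *Pax5*, 1.66 for *Ighm*, 1.77 for *Cd79b*, 4.41 for *Ms4a1*, 5.79 for *Cd79a*, and 6.6 for *Jchain*. Over genes with at least 30 counts, the median of this ratio was 1.09 for all tested genes, 1.18 for TEC genes, 1.44 for other B-lineage genes, 1.74 for T-cell markers, 1.86 for general blood cell markers, and 2.63 for myeloid markers. The median was 1.14 for erythroid, 1.53 for mesenchymal, 1.73 for microfold cell, 1.92 for endothelial, and 2.41 for parathyroid genes. For other genes of the *Pax*, *Ebf*, and *Ms4a* families it was 2.3. Single genes differed, with ratios of 0.804 for *Cr2*, 0.868 for *Irf4*, and 1.02 for *Ikzf1*, and of 1.92 for *Ptprc*.

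The 8 genes differed in level, in size of difference, and in spread among replicates. In CCL21-RANK+ TECs the mean level was highest for *Igkc* (21.9 RPKM), followed by *Cd79b* (6.01), *Ebf1* (1.95), *Ighm* (1.84), *Pax5* (1.18), *Cd79a* (0.419), *Ms4a1* (0.118), and *Jchain* (0.117). The ranges over the 3 libraries overlapped between *Ebf1* and *Ighm*, between *Ighm* and *Pax5*, and among *Cd79a*, *Ms4a1*, and *Jchain*, so these neighbours are not separated by their ranges. Within each library, however, *Ighm* exceeded *Pax5*, and *Cd79a* exceeded *Ms4a1* and *Jchain*. Every CCL21-RANK+ library was above all 5 others for 6 of the 8 genes, whereas *Jchain* and *Ebf1* overlapped. Of the 21451 genes that passed the expression filter, 28.2% had this pattern, and since the genes were chosen for their levels nothing is read from the count. Of the 8, 7 passed the filter and *Jchain* did not. The libraries are bulk samples, so fewer cells of a type and less RNA per cell cannot be told apart.

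**Figure D1:**
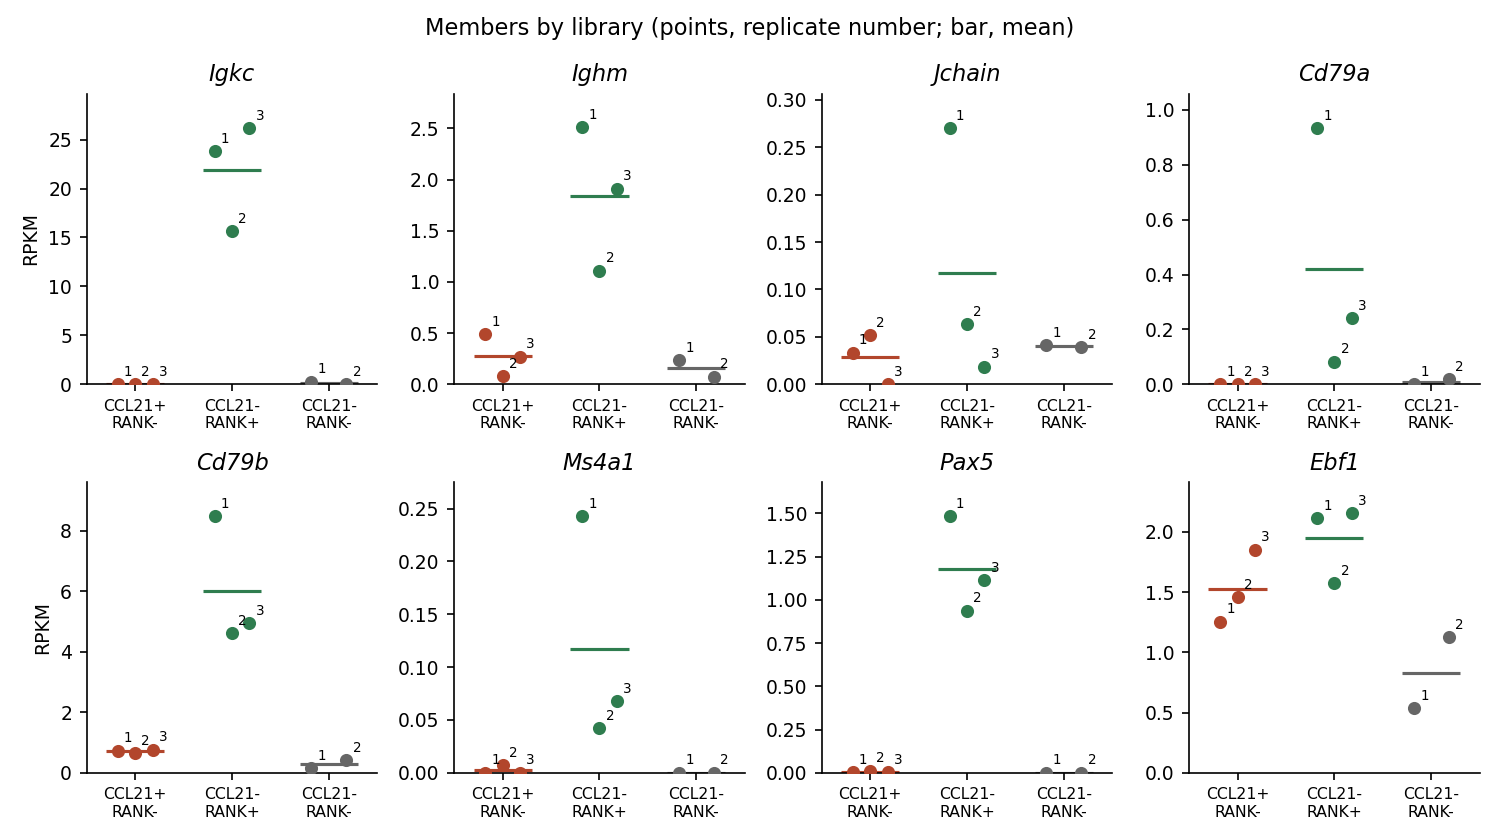
RPKM (vertical axis, linear from 0, its own scale for each gene) of the 8 genes in each library, by population. Points are libraries with their replicate number and bars are means. The CCL21-RANK+ points stand above the other 5 for *Igkc*, *Ighm*, *Cd79a*, *Cd79b*, *Ms4a1*, and *Pax5*, and replicate 1 is far above replicates 2 and 3 for *Cd79a*, *Ms4a1*, and *Jchain*.

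*Igkc* lies at chr6:70726435-70726966 on the + strand, where the lincRNA *Gm30211* is annotated on the same strand, so reads shared with it are uncertain. The CCL21-RANK+ libraries held 727, 418, and 596 counts of it (23.9, 15.7, and 26.2 RPKM), every CCL21+RANK- library held 0, and the CCL21-RANK- libraries held 9 and 0. The 3 CCL21-RANK+ libraries were alike, with an SD of 25.2% of the mean, and all were above the other 5 libraries, among which 1 held the gene. With the CCL21+RANK- libraries taken at a floor of 3 counts over the group, *Igkc* was at least 576-fold higher in CCL21-RANK+ TECs, a bound that lay between 363 and 647 when single libraries were left out. Against CCL21-RANK- TECs the log2 fold change was 7.28 ± 0.94 (± SE of the fit), where all 9 counts of the lower group came from replicate 1. Without CCL21-RANK- replicate 2 it was 6.23, and without CCL21-RANK- replicate 1 the gene was at least 269-fold higher against the floor.

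*Ighm*, the constant gene of the mu heavy chain (chr12:113418558-113422730, - strand), had counts in all 8 libraries. CCL21-RANK+ TECs held 271, 105, and 154 counts, CCL21+RANK- TECs 55, 7, and 28, and CCL21-RANK- TECs 30 and 10. The lowest CCL21-RANK+ library (1.11 RPKM) was above the highest of the others (0.489 RPKM), and the other 2 populations overlapped. The log2 fold change of CCL21-RANK+ TECs was 2.59 ± 0.68 against CCL21+RANK- and 3.40 ± 0.83 against CCL21-RANK- TECs. The first value was 3.28 without CCL21+RANK- replicate 1, and the second was 4.54 or 2.75 when replicate 1 or 2 of the CCL21-RANK- TECs was left out. Thus *Ighm* counts were also present in CCL21+RANK- TECs, where *Igkc* had none.

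*Jchain* (chr5:88519809-88527891, - strand) encodes the joining chain that links IgM and IgA into polymers, a product of antibody-secreting cells. Its counts were 39, 8, and 2 for CCL21-RANK+, 5, 6, and 0 for CCL21+RANK-, and 7 and 7 for CCL21-RANK- TECs. The populations overlapped, and 1 CCL21-RANK+ library held most of the counts. The ratio of mean scaled counts was 3.52 against CCL21+RANK- and 2.61 against CCL21-RANK- TECs. Without CCL21-RANK+ replicate 1 the mean was 0.102 CPM (counts scaled by library size), against 0.0771 for CCL21+RANK- and 0.104 for CCL21-RANK- TECs. The excess over CCL21-RANK- TECs was thus no longer seen, and no direction is read from so few counts.

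*Cd79b* and *Cd79a* encode the signalling chains of the receptor, which act as a pair, and their levels were not alike. For *Cd79b* (chr11:106311341-106314762, - strand) there were 695, 331, and 303 counts from CCL21-RANK+, 62, 43, and 60 from CCL21+RANK-, and 14 and 42 from CCL21-RANK- TECs. The 3 populations were separate, in the order CCL21-RANK+ (4.61 to 8.48 RPKM), CCL21+RANK- (0.653 to 0.761), and CCL21-RANK- (0.145 and 0.41). Among all tested genes, the CCL21-RANK+ values all exceeded those of CCL21+RANK- TECs for 33.7% and those of CCL21-RANK- TECs for 36.1%, and the CCL21+RANK- values all exceeded those of CCL21-RANK- TECs for 20.1%. The log2 fold change of CCL21-RANK+ TECs was 2.94 ± 0.39 over CCL21+RANK- and 4.32 ± 0.49 over CCL21-RANK- TECs, the latter 3.8 or 5.15 when replicate 1 or 2 of the CCL21-RANK- TECs was left out.

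*Cd79a* (chr7:24897381-24902197, + strand) had 78, 6, and 15 counts from CCL21-RANK+, 0 from every CCL21+RANK-, and 0 and 2 from the CCL21-RANK- libraries. The 3 CCL21-RANK+ libraries were above the others but spread widely among themselves. Against the floor, *Cd79a* was at least 29.2-fold higher than in CCL21+RANK- TECs, and it was 42.2-fold higher than in CCL21-RANK- TECs, with a 95% counting interval of 11.4 to 353. CCL21-RANK+ replicate 1 held 78 of the 99 counts, and without it the bound was 11.9-fold and the ratio 15.0 (interval 3.65 to 132). When a CCL21+RANK- library was left out the bound was 18.4 to 21.5-fold. Without CCL21-RANK- replicate 1 the ratio was 22.8, and without replicate 2 the gene was at least 11.6-fold higher. In CCL21-RANK+ replicates 1, 2, and 3, *Cd79b* was at 9.07, 56.2, and 20.6 times the RPKM level of *Cd79a*, so the ratio of the chains differed by library.

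*Ms4a1* (chr19:11249675-11266241, - strand) encodes CD20, a membrane protein of mature B cells. It had 86, 13, and 18 counts from CCL21-RANK+, 0, 2, and 0 from CCL21+RANK-, and 0 from both CCL21-RANK- libraries. All 3 CCL21-RANK+ libraries were above the others. The level was 57.7-fold higher than in CCL21+RANK- TECs, with a 95% counting interval of 15.6 to 482, and at least 30.2-fold higher than in CCL21-RANK- TECs against the floor. CCL21-RANK+ replicate 1 held 86 of the 117 counts, and without it the ratio was 25.6 (interval 6.51 to 221) and the bound 14.9-fold. Without CCL21+RANK- replicate 1 or 3 the ratio was 36.4 or 36.5, and without replicate 2, which held both counts of that population, the gene was at least 25.7-fold higher. Without CCL21-RANK- replicate 1 or 2 the bound was 16.3 or 13.9-fold. An antisense gene, *4930526L06Rik*, overlaps the locus, and the strand setting of the counting is not given in the sources used here, so reads of the 2 genes may not have been told apart.

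*Pax5* (chr4:44524757-44710487, - strand) was near 0 outside the CCL21-RANK+ population. CCL21-RANK+ TECs held 752, 416, and 421 counts, CCL21+RANK- TECs 2, 5, and 1, and both CCL21-RANK- libraries 0. The CCL21-RANK+ levels of 1.48, 0.937, and 1.11 RPKM were alike, and the highest level elsewhere was 0.0123. The log2 fold change over CCL21+RANK- TECs was 7.49 ± 0.56, and *Pax5* was at least 443-fold higher than in CCL21-RANK- TECs against the floor. Without CCL21+RANK- replicate 2, where 3 counts remained in that population, the first comparison gave a ratio of 385 (95% counting interval 131 to 1867). The bound was 240-fold or 203-fold when replicate 1 or 2 of the CCL21-RANK- TECs was left out. The antisense gene *Gm12462* overlaps the locus.

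*Ebf1* (chr11:44617317-45008091, + strand) differed from the others in that every library held at least 354 counts. There were 1183, 771, and 899 counts from CCL21-RANK+, 731, 655, and 996 from CCL21+RANK-, and 354 and 787 from CCL21-RANK- TECs. The CCL21-RANK+ and CCL21+RANK- values overlapped, with a log2 fold change of 0.24 ± 0.23, and those populations exceeded CCL21-RANK- TECs by 1.13 ± 0.27 and 0.89 ± 0.27. These were 0.73 and 0.50 without CCL21-RANK- replicate 1, and 1.66 and 1.42 without replicate 2. In CCL21-RANK+ replicates 1, 2, and 3, *Pax5* was at 0.701, 0.595, and 0.516 times the RPKM level of *Ebf1*. The antisense gene *Gm12158* overlaps the *Ebf1* locus.

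Relatives of these genes were counted beside them. Of 21 other genes of the *Pax*, *Ebf*, and *Ms4a* families, 13 passed the filter. Each CCL21+RANK- library had 12 or 13 of the 21 at 0 and each CCL21-RANK+ library 3 to 5. Some could thus pass through the CCL21-RANK+ libraries alone, and nothing is read from the counts that follow. By edgeR's quasi-likelihood test (called at a Benjamini-Hochberg adjusted p under 0.05), 7 were higher and 2 lower in CCL21-RANK+ TECs relative to CCL21+RANK- TECs (6 and 2 when CCL21-RANK+ replicate 1 was left out). Of all tested genes 53.7% were called in that comparison, 30.6% higher and 23.1% lower. *Pax1* and *Pax9*, which act in pharyngeal and thymic epithelium, were the lower ones, with *Pax1* at 253 ± 39.2 RPKM in CCL21+RANK- and 47.5 ± 13.7 RPKM in CCL21-RANK+ TECs. *Pax2*, a developmental factor of the kidney, had 227, 84, and 45 counts from CCL21-RANK+ and 1, 0, and 0 from CCL21+RANK- TECs.

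The nearest protein-coding genes on each side were read to see what else moved at each locus. *Gh*, the growth hormone gene 9476 bp from *Cd79b*, rose by 2.67 on the log2 scale in CCL21-RANK+ over CCL21+RANK- TECs (edgeR adjusted p = 0.0057). *Scn4a*, a muscle sodium channel gene 3830 bp away on the other side, rose by 2.62 (edgeR adjusted p = 0.00075). *Melk*, a kinase gene of dividing cells next to *Pax5*, rose by 2.23 (edgeR adjusted p = 8.6e-06). In contrast, *Arhgef1*, 715 bp from *Cd79a*, did not pass the test (0.13, adjusted p = 0.37, edgeR), nor did *Rpia*, 38754 bp from *Igkc* (0.31, adjusted p = 0.088). *Ms4a5* and *Ms4a12*, on either side of *Ms4a1*, had no count in any library.

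The remaining immunoglobulin genes were examined by segment. The annotation holds 430 segments besides *Igkc* and *Ighm*, of which 390 had no count in any library. Constant genes, *Igkc* and *Ighm* included, took 3848 counts in the CCL21-RANK+ population, 97 in CCL21+RANK-, and 50 in CCL21-RANK-, and 12 of the 14 had a count in the first. Variable (V) segments took 253, 10, and 2 counts, with 28 of the 380 seen in CCL21-RANK+ TECs and 1 in each other population. The 22 D and 14 J segments had none. Whether reads of joined transcripts could be counted on D or J segments was not examined, so nothing about joining is read from this. Of the immunoglobulin counts of CCL21-RANK+ replicates 1, 2, and 3, 91.5% (exact Clopper-Pearson 95% interval 90.2 to 92.7, of 2108), 94.4% (92.6 to 95.8, of 833), and 97.7% (96.6 to 98.5, of 1160) lay on constant genes. These intervals, like the floors, cover counting error only.

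Per exon length, the V segments were below the constant genes at all 3 loci, and the ratio differed among replicates. Summed *Igkv* levels were 21.2%, 13%, and 3.62% of the *Igkc* level in CCL21-RANK+ replicates 1, 2, and 3. Summed *Ighv* levels were 71.4%, 26.5%, and 11.8% of those of the heavy-chain constant genes. For lambda, summed *Iglv* levels were 0.738%, 0.621%, and 2.62% of the constant genes. Replicate 1 was thus highest for kappa and the heavy chain and not for lambda. How reads of V segments that resemble each other were divided was not examined.

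**Figure D2:**
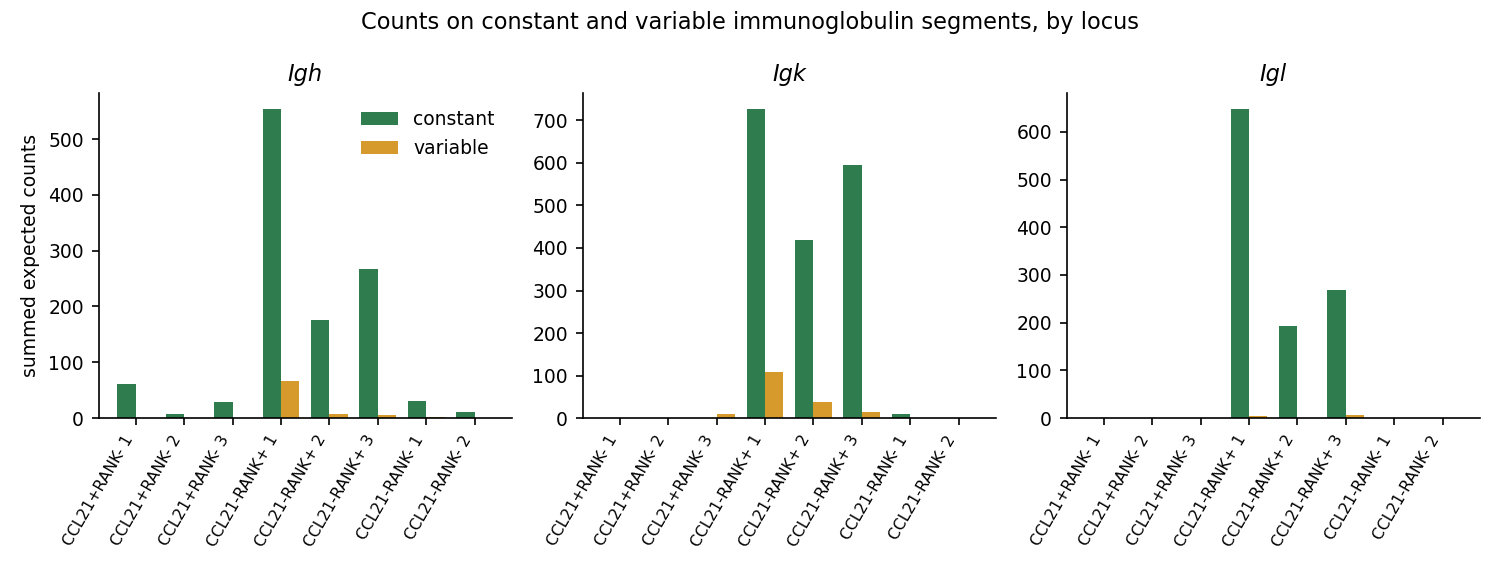
Summed expected counts (vertical axes, linear from 0, a scale for each locus) on constant (green) and variable (orange) segments of the heavy (*Igh*), kappa (*Igk*), and lambda (*Igl*) loci. Bars are single libraries. Constant counts are highest in the 3 CCL21-RANK+ libraries at each locus, and the variable bars are tallest in replicate 1 for *Igh* and *Igk*.

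Among single segments, *Iglc3* had 511, 173, and 244 counts from CCL21-RANK+, 0 from every CCL21+RANK-, and 1 and 0 from the CCL21-RANK- libraries. It was thus at least 295-fold higher than in CCL21+RANK- TECs against the floor, or at least 186-fold without CCL21+RANK- replicate 1 or 3. *Iglc2*, its near copy shown above, had 18, 7, and 3 counts from CCL21-RANK+ TECs and none elsewhere. *Iglc1*, a further lambda constant gene, had 119, 13, and 22 there, and the V segment *Igkv6-29* had 55, 24, and 9. *Ighg1*, *Ighg3*, and *Ighg2b* are constant genes of IgG, the class made after switching from IgM. CCL21-RANK+ TECs held 120, 15, and 28 counts of *Ighg1*, 76, 29, and 42 of *Ighg3*, and 37, 25, and 14 of *Ighg2b*. In the other 5 libraries *Ighg1* had 6 counts, all from 1 library, and *Ighg3* and *Ighg2b* had none. The IgG genes resemble each other, so the division of reads among them is uncertain. Of the 430 segments 7 passed the filter and all 7 were called higher relative to CCL21+RANK- TECs, but a segment could pass through the CCL21-RANK+ libraries alone, so nothing is read from this count.

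Another 72 B-lineage genes were grouped by role, of which 68 passed the filter. Each CCL21+RANK- library had 13 to 18 of them at 0 and each CCL21-RANK+ library 0 to 4, so some could pass through the CCL21-RANK+ libraries alone. The counts and medians of this and the following lists are thus a description of genes chosen with results known. Relative to CCL21+RANK- TECs, 38 were higher and 9 lower in CCL21-RANK+ TECs, beside 30.6% and 23.1% of all tested genes. With at least 10 counts asked for in every library, 17 were higher and 7 lower of 37 tested, beside 4163 and 3962 of all 14615 genes tested there. The median log2 fold change of the 68 was 2.35, against 0.11 over all tested genes. Relative to CCL21-RANK- TECs, 45 were higher and 8 lower, beside 27% and 21.9% of all tested genes (49% called). The median was 3.8, or 3.30 with genes at 0 in a population placed at their bound, against 0.06 over all. These comparisons share the CCL21-RANK+ libraries. Without CCL21-RANK+ replicate 1, 44 and 48 of the genes were called in them.

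Between the populations without RANK, 15 of the 72 genes were higher and 3 lower in CCL21+RANK- relative to CCL21-RANK- TECs. Of all tested genes 11.4% were called, 6.28% higher and 5.15% lower. This count rested on few libraries, since it fell from 18 to 6 without either CCL21-RANK- replicate and to 11 without CCL21+RANK- replicate 1.

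**Figure D3:**
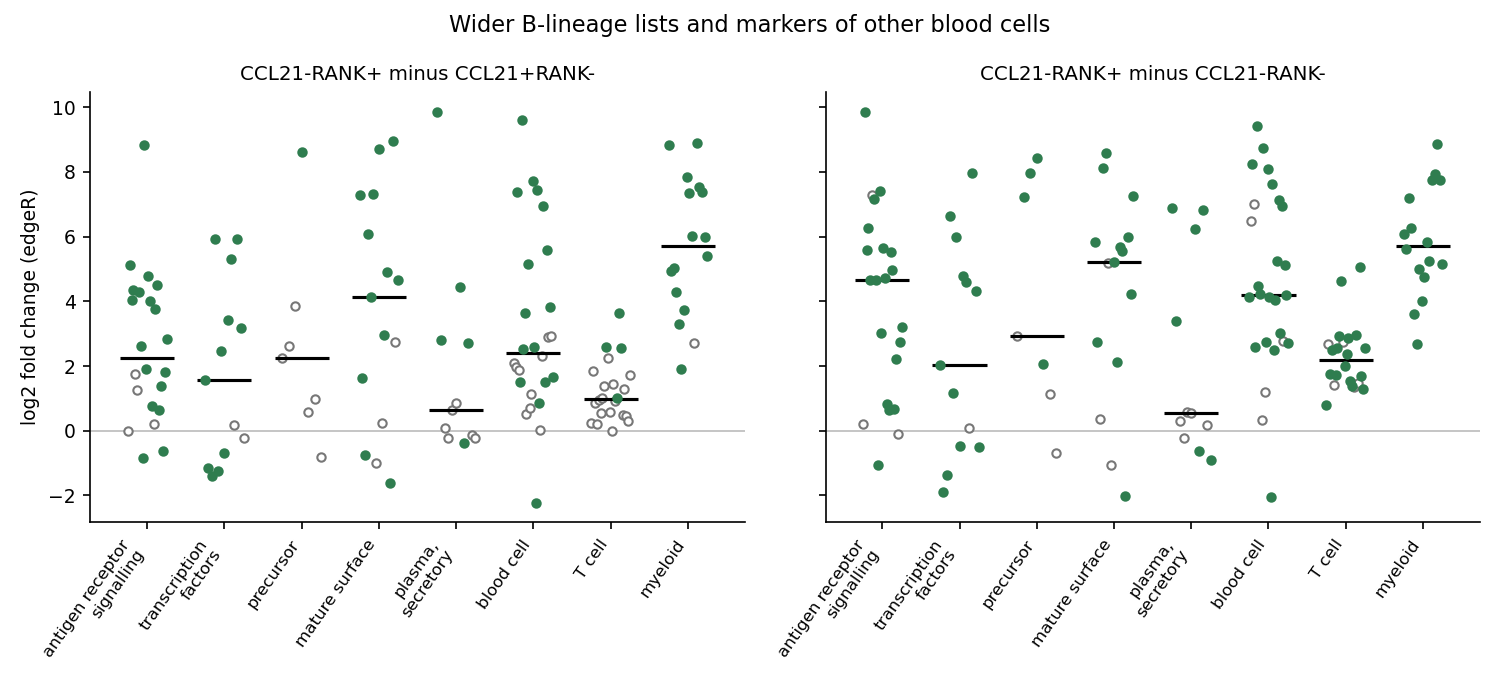
Log2 fold change from edgeR (vertical axis) for genes of each list that passed the filter, CCL21-RANK+ minus CCL21+RANK- (left) and minus CCL21-RANK- (right). Points are genes, filled where the adjusted p was under 0.05, and bars are medians, and fitted values of genes at 0 in a population depend on the prior count. The median is above 0 for every list drawn, and among the B-lineage lists it is nearest to 0 for plasma and secretory genes (0.65 and 0.54).

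Of 22 genes of antigen receptor signalling, 16 were higher and 2 lower relative to CCL21+RANK- TECs, beside 30.6% and 23.1% of all tested genes. With CCL21-RANK+ replicate 1 left out, 14 were higher and 2 lower. *Cr2*, which encodes complement receptor 2, a part of the B-cell coreceptor, had 2121, 2099, and 2149 counts from CCL21-RANK+ and 1 to 22 in the other libraries (log2 fold change 8.82 ± 0.51, edgeR adjusted p = 1.2e-06). The CCL21-RANK+ counts of *Cr2* were nearly equal, and without CCL21+RANK- replicate 1, where 3 counts remained in that population, the ratio was 1322 (95% counting interval 452 to 6412). *Cd72*, an inhibitory coreceptor, rose by 2.63 ± 0.15 to 18.7 ± 3.59 RPKM (edgeR adjusted p = 1.3e-06). *Cd22*, also an inhibitory coreceptor, rose by 4.30 ± 1.19 (edgeR adjusted p = 0.013), from 11, 0, and 0 to 122, 52, and 49 counts, and its log2 fold change was 3.71 without CCL21+RANK- replicate 3. Without CCL21+RANK- replicate 1 that population held no *Cd22* count. *Cd81*, a coreceptor partner made in many tissues, fell by 0.83 (edgeR adjusted p = 0.00083), and *Ptpn6*, a phosphatase that dampens receptor signals, by 0.63 (adjusted p = 0.016). The *Ptpn6* call was lost when replicate 1 or 2 of CCL21+RANK- or replicate 2 or 3 of CCL21-RANK+ TECs was left out (edgeR adjusted p = 0.052 to 0.099). *Bcl10*, a signalling adaptor, was at 19.5 ± 1.85 and 21.3 ± 1.23 RPKM and did not pass the test.

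The 11 genes that define B cells are a selection from the 72, so their calls also count in the other groups. Of these, 9 passed the filter, and 6 were higher and 0 lower relative to CCL21+RANK- TECs, beside 30.6% and 23.1% of all tested genes. With CCL21-RANK+ replicate 1 left out, 6 were higher and 0 lower. Each library outside the CCL21-RANK+ population had 4 to 7 of the 11 at 0, so nothing is read from these counts either. *Tnfrsf13c*, the receptor for the survival factor BAFF, was at 4.33 ± 1.23 RPKM in CCL21-RANK+ against 0.155 ± 0.043 in CCL21+RANK- TECs (log2 fold change 4.66 ± 0.39, edgeR adjusted p = 9e-06). *Fcer2a*, which encodes the IgE receptor CD23, had 1363, 256, and 418 counts against 64, 17, and 30, *Blk*, a kinase of B cells, 185, 80, and 71 against 3, 1, and 5, and *Fcrla* 81, 27, and 43 against 0 in each. All 3 were called higher. *Igll1* and *Vpreb1*, the surrogate light chain of precursor B cells, did not pass the test, with 62, 3, and 28 counts of *Igll1* against 0, 0, and 6 and 10, 5, and 8 counts of *Vpreb1* against 15, 17, and 6. Without CCL21+RANK- replicate 3, which held all 6 counts of *Igll1* in that population, *Igll1* passed (edgeR adjusted p = 0.026). *Bank1* had 13, 0, and 0 and *Vpreb3* 1, 0, and 0 counts from CCL21-RANK+ TECs, and both were at 0 in the other 5 libraries. The summed level of the 11 genes was 21.3, 12.2, and 14.6 RPKM for CCL21-RANK+, 0.823, 0.611, and 0.601 for CCL21+RANK-, and 0.197 and 0.346 for CCL21-RANK- replicates. *Cr2* made up 21.4%, 42.4%, and 42.6% of the CCL21-RANK+ sums. Its part was 2.76%, 0.877%, and 0.372% of the CCL21+RANK- sums and 20.4% and 4.97% of the CCL21-RANK- sums.

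Among 13 transcription factors of the lineage, 7 were higher and 4 lower relative to CCL21+RANK- TECs, beside 30.6% and 23.1% of all tested genes, with or without CCL21-RANK+ replicate 1. *Spib*, an ETS factor of B cells and of microfold cells, was at 130 ± 13.7 RPKM against 13.2 ± 0.254 (log2 fold change 3.18 ± 0.11, edgeR adjusted p = 1.3e-07). *Ikzf1*, which encodes Ikaros, was at 41 ± 0.734 RPKM against 0.626 ± 0.194 (5.91 ± 0.29, edgeR adjusted p = 5.7e-07). *Pou2af1*, a coactivator of octamer-binding factors, was at 22.2 ± 2.97 RPKM against 1.89 ± 0.625, and *Irf4*, a factor of late B cells, at 21.2 ± 1.71 against 3.55 ± 1.39. All 4 were called higher. *Foxo1*, a factor of B-cell precursors, fell by 1.39 (edgeR adjusted p = 2.8e-06) and *Irf8* by 0.69 (adjusted p = 0.003), and *Tcf3* did not pass the test.

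Of 9 genes of B-cell precursors, 7 passed the filter. Relative to CCL21-RANK- TECs, 4 were higher and 0 lower, beside 27% and 21.9% of all tested genes. With CCL21-RANK+ replicate 1 left out, 3 were higher and 0 lower. Relative to CCL21+RANK- TECs, 1 was higher and 0 lower, beside 30.6% and 23.1% of all tested genes, with or without CCL21-RANK+ replicate 1. It was *Il7r*, the receptor of interleukin 7, with 160, 174, and 180 counts from CCL21-RANK+ and 0, 0, and 1 from CCL21+RANK- TECs. *Rag1*, which cuts the antigen receptor genes, was at 4.96 ± 2.07 and 3.05 ± 1.9 RPKM and did not pass the test (edgeR adjusted p = 0.28), while it was higher than in CCL21-RANK- TECs (2.08 ± 0.51, adjusted p = 0.0082). The *Rag1* calls rested on single libraries, since without CCL21+RANK- replicate 1 the first passed (1.19, edgeR adjusted p = 0.022) and without CCL21-RANK- replicate 2 the second did not (edgeR adjusted p = 0.068). Of 17 genes of the mature B-cell surface, of which 15 passed the filter, 10 were higher and 2 lower, or 9 and 2 with CCL21-RANK+ replicate 1 left out. *Cd40*, which receives T-cell help, rose by 1.63 ± 0.19 (edgeR adjusted p = 7.6e-05) and *Ly6d* by 4.90 ± 0.86 (adjusted p = 0.0011), with 6.29 and 4.31 for *Ly6d* when replicate 2 or 3 of the CCL21+RANK- TECs was left out. *Ciita*, the regulator of MHC class II genes, fell by 0.74 (edgeR adjusted p = 0.0033) and *Ralgps2* by 1.61 (adjusted p = 1.2e-06).

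Of 11 genes of plasma cells and secretion, 4 were higher and 1 lower relative to CCL21+RANK- TECs, beside 30.6% and 23.1% of all tested genes, with or without CCL21-RANK+ replicate 1. *Xbp1*, *Txndc5*, and *Ell2*, which many secretory cells use, did not pass the test, and *Sdc1*, which encodes CD138, fell by 0.38 (edgeR adjusted p = 0.025). The *Sdc1* call was lost when replicate 1 or 2 of CCL21+RANK- or replicate 3 of CCL21-RANK+ TECs was left out (edgeR adjusted p = 0.053 to 0.12). *Derl3* rose by 2.81 ± 0.58 (edgeR adjusted p = 0.0028, or 3.90 without CCL21+RANK- replicate 1) and *Tnfrsf17*, the receptor BCMA, by 2.71 ± 0.68 (adjusted p = 0.0077). Among genes that carry immunoglobulin across cells, *Pigr*, the epithelial receptor of polymeric immunoglobulin, had 767, 38, and 32 counts from CCL21-RANK+ TECs and 0, 0, and 1 from CCL21+RANK- TECs, so 1 library held most of it. *Fcgrt*, the neonatal IgG receptor, fell by 2.90 (edgeR adjusted p = 1.9e-06).

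Markers of CD45+ cells were read beside the B-lineage genes. Of 26 general blood cell markers, 15 were higher and 1 lower relative to CCL21+RANK- TECs, and 20 were higher and 1 lower relative to CCL21-RANK- TECs. Of all tested genes, 30.6% and 23.1% were higher and lower in the first comparison and 27% and 21.9% in the second. Without CCL21-RANK+ replicate 1, 14 and 20 of them were called. Each CCL21+RANK- library had 1 to 5 of the 26 at 0 and each CCL21-RANK+ library 0 or 1, so some could pass through the latter alone. *Ptprc*, which encodes CD45, was at 0.576, 0.177, and 0.422 RPKM in CCL21-RANK+, 0.193, 0.112, and 0.0684 in CCL21+RANK-, and 0.0518 and 0.0351 in CCL21-RANK- replicates. The first and second of these overlapped, and the log2 fold change was 1.5 ± 0.5 (edgeR adjusted p = 0.028). This call was lost when replicate 2 or 3 of CCL21+RANK- or replicate 1 or 3 of CCL21-RANK+ TECs was left out (edgeR adjusted p = 0.069 to 0.09). *Laptm5*, the most abundant of the list in CCL21-RANK+ TECs, was at 113 ± 46.2 RPKM against 0.587 ± 0.33, and *Il2rg*, the common cytokine receptor chain, at 34.2 ± 9.87 against 0.145 ± 0.0871. *Itgb2*, a chain shared by leukocyte integrins, fell by 2.23 (edgeR adjusted p = 1.7e-05), and *Cd53* had 34, 0, and 14 counts against 0, 3, and 9 and did not pass the test.

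The summed level of the 26 markers was 373, 182, and 235 RPKM for CCL21-RANK+, 24.1, 19.8, and 22.7 for CCL21+RANK-, and 12.3 and 12.7 for CCL21-RANK- replicates. *Laptm5* made up 44.1%, 41%, and 43% of the CCL21-RANK+ sums. Over the same replicates, *Igkc* was at 41.4, 88.3, and 62.2 times the RPKM level of *Ptprc*, and *Pax5* at 2.58, 5.28, and 2.64 times. The part of CD45+ cells in the B-lineage values was not tested.

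**Figure D4:**
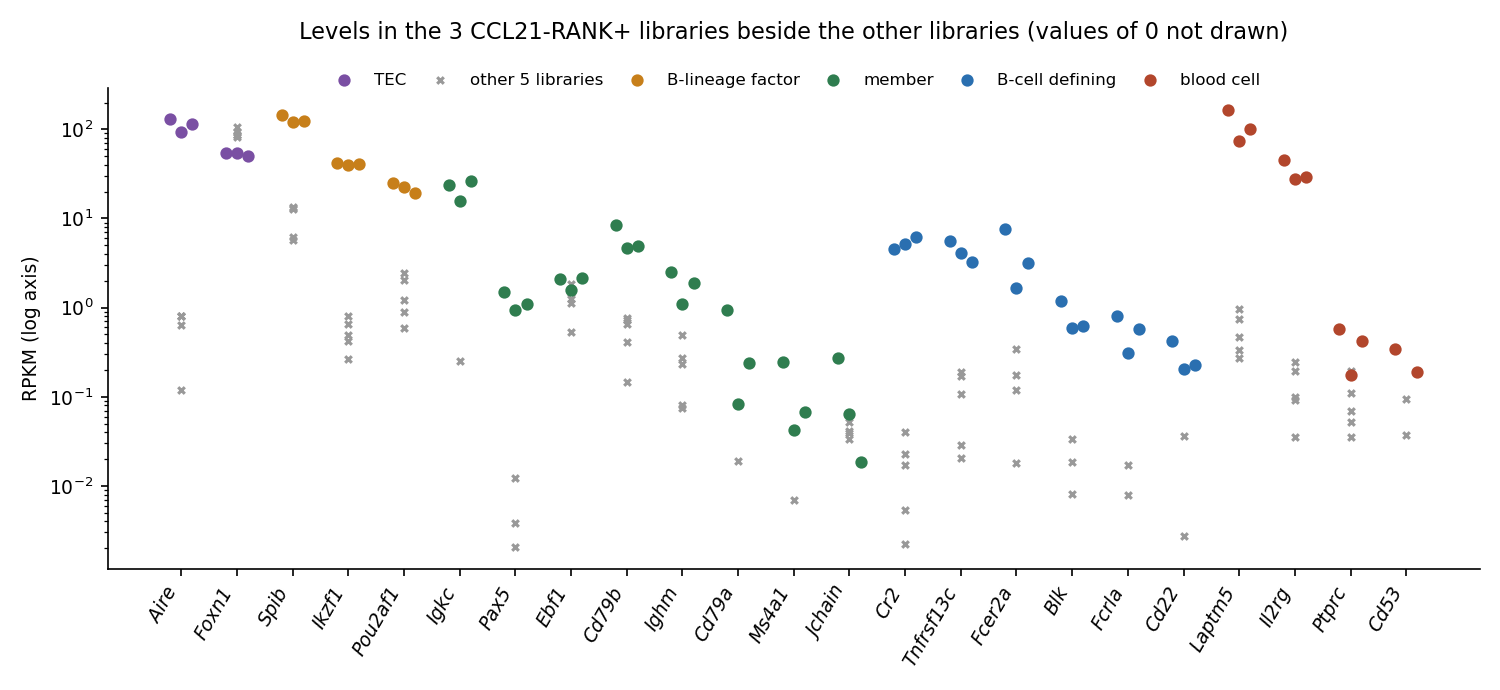
RPKM (vertical axis, log scale) of selected genes in CCL21-RANK+ replicates 1 to 3 (coloured points, left to right) and the other 5 libraries (grey crosses), with values of 0 not drawn. The *Spib* and *Ikzf1* points lie above those of *Igkc*, and *Ptprc* and *Cd53* lie below 1 RPKM in every library.

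Of 22 T-cell markers, 4 were higher and 0 lower relative to CCL21+RANK- TECs, and 17 and 0 relative to CCL21-RANK- TECs, beside 30.6% and 23.1%, and 27% and 21.9%, of all tested genes. With CCL21-RANK+ replicate 1 left out, 4 and 12 were higher. *Tcf7*, the most abundant of them in CCL21-RANK+ TECs, rose by 2.54 ± 0.25 in the first comparison (edgeR adjusted p = 2.2e-05), and *Trbc2*, a constant gene of the T-cell receptor, was at 8.68 ± 3.3 and 6.41 ± 1.74 RPKM and did not pass the test. Of 18 myeloid markers, of which 16 passed the filter, 15 were higher and 0 lower in the first comparison, or 13 and 0 with that library left out. Each CCL21+RANK- library had 5 to 8 of the myeloid markers at 0 and each CCL21-RANK+ library 0 to 2. Some could thus pass through the CCL21-RANK+ libraries alone, so nothing is read from the myeloid counts. *Lyz2*, the most abundant, had 3941, 973, and 1004 counts from CCL21-RANK+ and 4, 6, and 1 from CCL21+RANK- TECs (log2 fold change 8.88 ± 0.70, edgeR adjusted p = 6.4e-06, 8.16 without CCL21-RANK+ replicate 1, and 9.61 when replicate 2 of CCL21+RANK- TECs was left out), and *S100a8* and *Mpo*, genes of granulocytes, also rose. Summed levels were 69.4, 39, and 57 RPKM of T-cell and 133, 42.4, and 49.3 RPKM of myeloid markers in CCL21-RANK+ replicates, against 31.8, 18.1, and 22.8 and 1.75, 1.14, and 1.05 in CCL21+RANK- replicates. In CCL21-RANK- replicates they were 13.8 and 12.9 and 0.853 and 0.837. No marker of either list was at 0 in all 8 libraries, and the part of these cells was not tested.

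Markers of other tissues were also counted in CCL21-RANK+ relative to CCL21+RANK- TECs, where 30.6% of all tested genes were higher and 23.1% lower. Of 10 erythroid genes 5 were higher and 0 lower, and *Hbb-bs*, the most abundant, was at 87.8 ± 22.1 and 27.1 ± 27.9 RPKM and did not pass the test unless CCL21+RANK- replicate 2 was left out (edgeR adjusted p = 0.044). Of 10 mesenchymal genes 5 were higher and 3 lower, with *Col1a1*, a collagen, at 15.6 ± 8.29 and 0.526 ± 0.146 RPKM. Of 5 endothelial genes, of which 4 passed the filter, 3 were higher and 0 lower, and all 4 parathyroid genes were lower. Of 6 genes of microfold cells, an epithelial type of the gut that also uses Spi-B, 5 were higher, *Spib*, *Gp2*, *Ccl9*, *Ccl20*, and *Sox8*, and *Tnfaip2* was lower. Of the 10 TEC genes 5 were higher and 5 lower. These counts were the same with CCL21-RANK+ replicate 1 left out. Each CCL21+RANK- library had 4 or 5 of the erythroid, 1 or 3 of the endothelial, and 1 or 2 of the microfold genes at 0. Each CCL21-RANK+ library had 0 or 1 of each list at 0. Some could thus pass through the CCL21-RANK+ libraries alone, so nothing is read from the counts of these 3 lists. The part of these tissues in the B-lineage values was not tested.

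The genes whose profile was most like each member were found by Pearson correlation of log2 CPM over the 8 libraries, among 13699 or 13700 protein-coding genes. The values are a description, since all points share the same 3 populations. *Calcr*, the calcitonin receptor gene, was most like *Igkc* (r = 0.998), *Crybg1* was most like *Pax5* (0.998), and *Lad1*, which encodes an epithelial anchoring protein, was most like *Cd79b* (0.996). *Cel*, a pancreatic lipase gene, was most like *Cd79a* (0.995), *Sdr9c7* was most like *Ms4a1* (0.992), *Slc30a10* was most like *Ighm* (0.981), and *Spire2* was most like *Ebf1* (0.954). Between members, r was 0.95 for *Igkc* with *Pax5*, 0.953 for *Cd79a* with *Ms4a1*, and 0.402, the lowest of the 21 pairs, for *Igkc* with *Ebf1*.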

How the data were processed

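Bulk RNA was sequenced from 8 libraries of sorted TECs. The authors deposited 1 table of expected counts per gene, not normalized, made per the submitters' processing notes with bcl2fastq 2.20, Trimmomatic, STAR 2.5.1, and RSEM 1.3.1, with mm10 as the build. RSEM divides reads that match several genes, so 4.47% to 5.94% of values per library were not whole. The labels and the study's methods name different stranded library kits, and the strand setting of the counting is not given in the sources used here. All 55450 identifiers matched GENCODE M21 (GRCm38), which supplied positions and exon lengths.

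Counts were rounded and tested in edgeR 4.0.16 (R 4.3.3) with TMM scaling, the default expression filter (21451 genes), and group means over all 8 libraries. P-values of the quasi-likelihood F-test were adjusted over all tested genes, and called means an adjusted p under 0.05. The study's own thresholds, which add a fold over 1.5 and an RPKM over 1, were an alternative. RPKM used the library total and the union of exons. SEs were derived from the F statistic. A population at 0 was set to a floor of 3 counts over its libraries, and one with 1 to 3 counts was given a ratio with a 95% counting interval. The common biological coefficient of variation was 0.326, and no libraries of a group were near-identical (chi-square per gene 77.3 to 275). The procedure was tested on simulated counts for CCL21-RANK+ against CCL21+RANK- TECs. There, 38% of 100 genes changed 2-fold and 69% of 100 genes changed 4-fold were called, and 1 unchanged gene was called. A gene that did not pass the test may thus still have changed.

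The members and the gene lists were chosen with earlier results of these data known. Named genes were the members, the defining B-cell, TEC, microfold, immunoglobulin transport, and parathyroid genes, the 4 most abundant and 4 most abundant called genes of other lists, the 6 immunoglobulin segments with most counts, the genes most alike each member, and the nearest protein-coding genes. *Iglc2*, *Igkv6-29*, *Ighg2b*, *Pou2af1*, *Foxo1*, *Itgb2*, *Ptprc*, and *Cd53* were added after their values were seen. Some genes of the lists that count toward their totals are not reported here by name. Alternatives were DESeq2 1.42.0 size factors and Wald test, upper-quartile scaling, other filters, only the populations compared, a replicate block, *Gm26917* and *Gm42418* left out, and each library left out. Leaving out libraries was planned for the fitted log2 fold changes of the tested members. For other single genes, for bounds, and for lists other than all B-lineage genes and blood cell markers it was chosen after seeing the data.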

Additional observations from a re-analysis of the deposited data

How the results depend on the processing

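The counts of genes called in the report were 11516, 10501, and 2453 of all tested genes for CCL21-RANK+ over CCL21+RANK-, CCL21-RANK+ over CCL21-RANK-, and CCL21+RANK- over CCL21-RANK-, 47, 53, and 18 of the other B-lineage genes, and 16, 21, and 2 of the blood cell markers. With a fold over 1.5 and an RPKM over 1 also asked for, 6618 and 6332 of all genes were called in the first and second comparison, 33 B-lineage genes and 13 blood cell markers in the second, and 1 blood cell marker in the third. With at least 10 counts in every library fewer genes were tested, and 8125 and 7084 of all 14615 were called in the first and second. Of 37 B-lineage genes 24 and 29 were called there, and of 12 blood cell markers 9 and 11. In the third, the DESeq2 Wald test called 3685 of all genes and 6 blood cell markers, and 5 such markers were called without an expression filter. The cause of these shifts in the third comparison was not tested.

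Leaving out 1 library at a time gave 10032 to 10926, 6814 to 10568, and 753 to 3519 calls among all genes, 42 to 46, 37 to 54, and 6 to 19 among B-lineage genes, and 14 to 17, 15 to 23, and 1 to 4 among blood cell markers. Counts among all genes moved by over 1.5 times without 1 of 3 libraries. These were CCL21-RANK- replicate 2 (6814 of all genes in the second comparison and 753 in the third), CCL21-RANK- replicate 1 (921 in the third), and CCL21+RANK- replicate 1 (1597 in the third). Without the same libraries, 6, 6, and 11 B-lineage genes were called in the third. The 2 blood cell markers called there became 4 when CCL21-RANK+ replicate 1 was left out, 3 for its replicate 2, and 1 for its replicate 3, CCL21+RANK- replicate 1 or 2, or either CCL21-RANK- replicate. Leaving out a CCL21-RANK- library leaves 1 sample, which is assumed to vary like the other groups. With a replicate block the counts were 10795, 9430, and 2532 for all genes, 47, 50, and 17 for B-lineage genes, and 16, 19, and 5 for blood cell markers. Deviations from the group means correlated at 0.0485 to 0.126 between CCL21+RANK- and CCL21-RANK+ libraries that share a number, each best with its own number in the other of these populations, but not every pair passed 0.1, so the numbers were not taken as pairs. For the 7 tested members, 291 fitted log2 fold changes under the alternatives stayed within the error of the main one and 0 changed sign, though some are fits to a population at 0, for which the report gives bounds. The other 19 moved, each when 1 library was left out. They are of *Igkc*, *Ighm*, *Cd79a*, *Cd79b*, *Ms4a1*, *Pax5*, and *Ebf1*, and the report gives those of the log2 fold changes it prints, or a ratio or bound where few counts remained. DESeq2 size factors, upper-quartile scaling, and library totals placed the median of all genes at 0.20, 0.19, and 0.23 in the first comparison, against 0.11. Genes with few counts, such as *Jchain*, *Cd79a*, and *Ms4a1*, are limited by depth.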
